A study of Mus musculus with 6 samples.

Results

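The genes described here are 8 genes of peripheral nerve: the myelin and Schwann cell genes Mbp, Pmp22, Mag, Prx, Cnp and S100b, the axonal gene Nefl, and Prnp, which neurons, Schwann cells and muscle all express. They were taken by gene symbol. The array carried 18 probe sets with a single symbol among these 8, covering 7 genes of the 12393 that could be named on it, and Prx, with 0 such probe sets, was not analysed here. Of the 18 probe sets, 11 lay above a filter on dim signals, at a signal of 28.6 (the 40th percentile), and these covered 6 genes. The 7 probe sets under it, among them the only one of Nefl, were not tested.

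The samples were 3 superficial masseters and 3 tibialis anterior muscles of normal adult female C57Bl/6 mice aged 6 months, without a treatment or transgene named in the labels. The masseter closes the jaw and is supplied by a cranial nerve, the trigeminal. The tibialis anterior lifts the foot and is supplied by a branch of the sciatic nerve. Total RNA of each muscle was read on 1 array, and the comparison asked which transcripts differ between a masticatory and a limb muscle. Values are scaled signal intensities. A difference is the mean log2 signal of the masseter minus that of the tibialis anterior, given with its standard error (SE). The adjusted p is that of limma with the sample number as a block, and the threshold on it was 0.05. Whether each sample of a muscle is a different mouse is not given in the labels, so the p-values measure only the spread between these samples, which may be technical.

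A muscle nerve branch carries motor, sensory and sympathetic axons. Schwann cells wrap the larger axons in compact myelin, a multilayered membrane held together by Mbp on its cytoplasmic side and built with the membrane protein Pmp22. They also ensheathe small axons without myelin and cap the axon terminal at the neuromuscular junction. The cell bodies of these neurons lie outside the muscle, while the nuclei of the Schwann cells lie within it. In whole-muscle RNA, fewer cells of a type and less RNA per cell cannot be told apart.

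Of the 11 tested probe sets, 1 passed the threshold, a probe set of Prnp that was lower in the masseter. Over all 13576 probe sets tested, 1.18% passed, 0.56% higher and 0.619% lower in the masseter. The Mbp and Pmp22 probe sets stood 1.33 to 1.74 times as high in the masseter, and Mag, Cnp and S100b had higher means there too, but 0 of these 9 probe sets passed with limma. At an unadjusted p under 0.05, 7 of the 11 passed, 5 higher and 2 lower in the masseter, where 13.1% of all probe sets tested did (6.93% higher and 6.12% lower). The arrays of the muscles did not overlap on 8 of the 11, against 17.8% of all probe sets tested. The median difference of the 11 was 0.57, against 0.02 over all probe sets tested. The probe sets of 1 gene read the same RNA and are not independent.

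**Figure D1:**
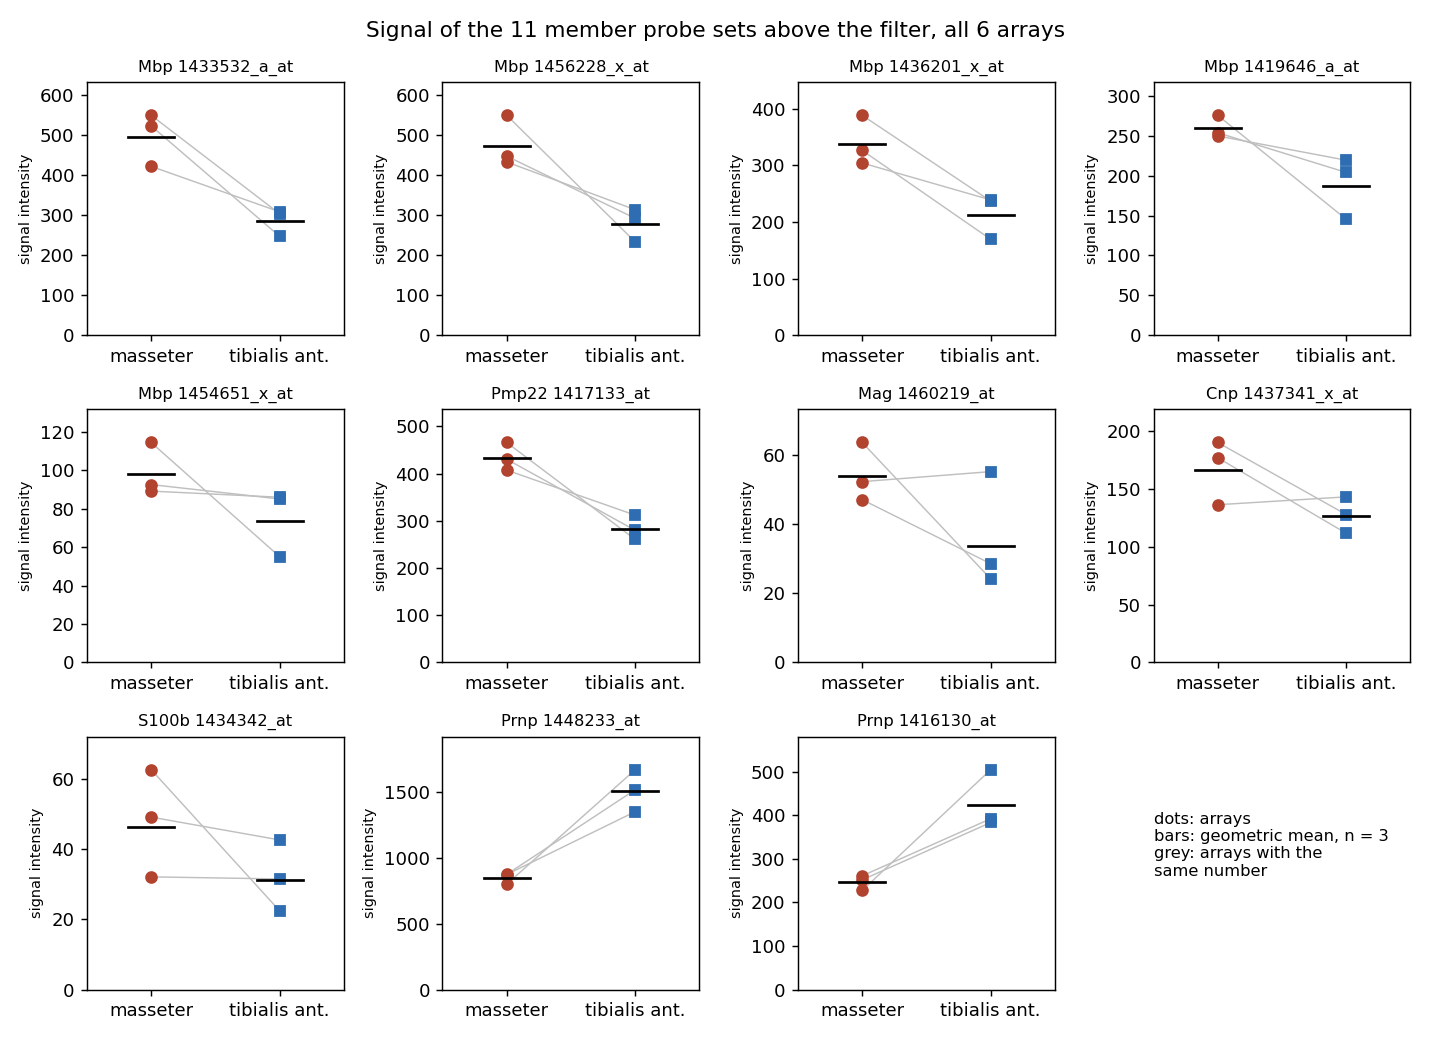
Signal intensity (vertical axes, linear, from 0) of each of the 11 tested probe sets in the 3 masseter arrays (red circles) and 3 tibialis anterior arrays (blue squares), with geometric means as bars and grey lines joining arrays of the same number. The 5 Mbp panels and the Pmp22 panel have all masseter arrays above all tibialis anterior arrays, the 2 Prnp panels have the reverse order, and the groups overlap for Mag, Cnp and S100b.

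Array masseter 1 stood apart from the others in markers of salivary gland, a tissue that lies close to the masseter. The summed signal of 13 salivary genes was 71724 there, against 3403 to 8412 in the other masseter arrays and 2576 to 6252 in the tibialis anterior. The 2 brightest of them by mean log2 signal were Smr2 and the amylase gene Amy1. Amy1 had signals of 12976, 2140 and 863 in masseter 1, 2 and 3 and of 1191, 891 and 459 in the tibialis anterior. Smr2 did not share this order, with 1010, 1185 and 2123 against 2548, 2063 and 1849. Tibialis anterior 1 lay above masseter 3 on both genes, and the source of the salivary signal was not tested. The summed signal of 8 adipocyte genes was 5297 to 7762 in the masseter and 3686 to 5279 in the tibialis anterior. Of its 6 tested genes, Adipoq, the adipokine adiponectin, and Scd1, a fatty acid desaturase, were higher in the masseter (differences of 1.26 and 1.19, limma adjusted p = 0.0167 and 0.0266). The muscles overlapped on Scd1. Without the block neither passed (limma adjusted p = 0.228 and 0.347), and the calls held in 8 and 5 of 18 alternatives. Fabp4, the fatty acid-binding protein of adipocytes and endothelium, did not pass (0.27, limma adjusted p = 0.537). The summed signal of 10 muscle fibre genes, which include Acta1, Ckm, Mb and Myh4, was 118819 in masseter 1, 138277 and 143604 in the other masseter arrays and 153931 to 160203 in the tibialis anterior. Without Myh4, the fast IIB myosin, which was lower in the masseter, the sums of the other 9 genes were 113170, 131205 and 135504 in the masseter and 139974, 136577 and 134533 in the tibialis anterior, and the muscles overlapped.

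**Figure D2:**
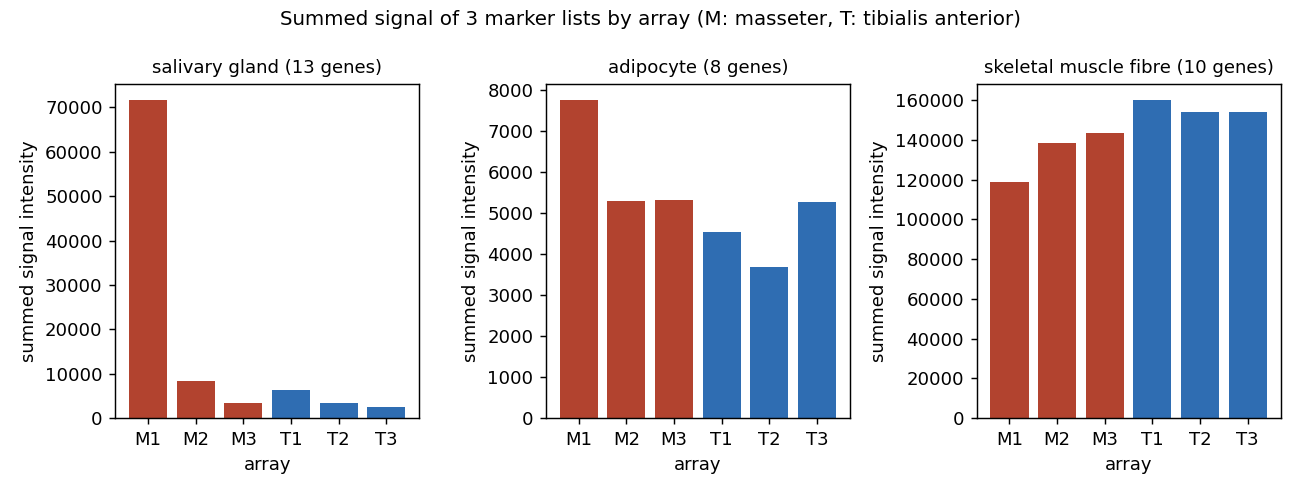
Summed signal intensity (vertical axes, linear, from 0) of salivary gland, adipocyte and skeletal muscle fibre genes on each array, with masseter arrays M1 to M3 in red and tibialis anterior arrays T1 to T3 in blue. The salivary sum of masseter 1 is 71724, and that of every other array is at most 8412.

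The promoters of Prnp, the gene with a call, and of Pmp22, the bright compact-myelin gene with a single probe set, are shown to give the regulatory sequence of a gene with the higher mean in each muscle. Pmp22 is known to be transcribed from alternative starts, of which one is used mainly in myelinating Schwann cells and another in other tissues. Its probe set does not say from which start a transcript came. The sequences are RefSeq windows of 300 bases around annotated starts (build GRCm38.p6, plus strand). Capitals mark the GC box GGGCGG, bound by Sp1-type factors, or its reverse complement CCGCCC. Such a match was present in 35.7% of the 32851 windows of that length.
Prnp, chr2:131909678-131909977: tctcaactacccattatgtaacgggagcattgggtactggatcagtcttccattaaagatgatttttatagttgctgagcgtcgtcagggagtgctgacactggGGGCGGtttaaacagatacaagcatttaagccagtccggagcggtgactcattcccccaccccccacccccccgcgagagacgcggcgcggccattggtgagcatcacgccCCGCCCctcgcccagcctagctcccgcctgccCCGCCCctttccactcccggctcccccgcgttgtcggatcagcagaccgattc
Pmp22, first of 4 annotated starts, chr11:63128732-63129031: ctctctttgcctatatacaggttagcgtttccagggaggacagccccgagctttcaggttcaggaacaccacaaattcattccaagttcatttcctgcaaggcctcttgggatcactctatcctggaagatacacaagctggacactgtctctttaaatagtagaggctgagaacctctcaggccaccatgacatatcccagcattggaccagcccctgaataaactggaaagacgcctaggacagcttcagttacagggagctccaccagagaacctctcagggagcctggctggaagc
Pmp22, the second start, chr11:63131207-63131506: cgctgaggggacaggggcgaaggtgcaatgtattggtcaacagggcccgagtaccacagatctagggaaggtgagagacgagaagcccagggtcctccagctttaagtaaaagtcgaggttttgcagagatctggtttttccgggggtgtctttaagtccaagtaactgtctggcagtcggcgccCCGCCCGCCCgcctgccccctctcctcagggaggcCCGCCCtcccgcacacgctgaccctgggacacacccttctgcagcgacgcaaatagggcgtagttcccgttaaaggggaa
The Prnp window held 3 GC boxes and 22 CpG dinucleotides, and the second Pmp22 window held 3 and 18. In that Pmp22 window the boxes of the longer marked stretch overlap and share bases. The first Pmp22 window held 0 GC boxes and 3 CpG dinucleotides, where the median window held 7 CpG. A match is a description of the letters and not of factor binding.

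Mbp encodes myelin basic protein, which joins the cytoplasmic faces of the membrane in compact myelin of both the central and the peripheral nervous system. The same gene also gives the longer golli transcripts, which are made in other cells as well. It was read by 8 probe sets. The brightest, 1433532_a_at, had signals of 550, 524 and 423 in masseter 1, 2 and 3 and of 304, 247 and 309 in tibialis anterior 1, 2 and 3. The lowest masseter array lay above the highest tibialis anterior array. The difference was 0.80 ± 0.18 (SE, n = 3 per muscle), which did not pass the threshold (limma adjusted p = 0.0886). Its unadjusted 95% interval ran from 0.39 to 1.20.

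The next probe set, 1456228_x_at, had signals of 432, 549 and 447 in the masseter and of 313, 233 and 292 in the tibialis anterior. On this platform the suffix x marks probe sets in which some probes may also bind other transcripts, and the suffix a marks those that read several transcripts of 1 gene. The muscles again did not overlap, with a difference of 0.77 ± 0.19 (limma adjusted p = 0.118). Probe set 1436201_x_at had signals of 304, 326 and 388 in the masseter and of 239, 169 and 237 in the tibialis anterior, and its difference was 0.67 ± 0.18 (limma adjusted p = 0.148). Probe set 1419646_a_at had signals of 250, 275 and 254 against 219, 145 and 204, a difference of 0.48 ± 0.20 (limma adjusted p = 0.361). The dimmest of the 5 tested, 1454651_x_at, had signals of 89.2, 115 and 92.6 against 86.0, 55.0 and 85.1. Its difference of 0.41 ± 0.26 had an adjusted p of 0.575 with limma and an interval that included 0.

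The 5 tested Mbp probe sets thus had the same order, all 3 masseter arrays above all 3 tibialis anterior arrays. Of all probe sets tested, 9.21% had that order. In each of them tibialis anterior 2 was the lowest array. Within the numbered pairs, the masseter was higher in 15 of 15 comparisons, and pair 2 gave the greatest difference on all 5. The difference was smaller on the dimmer probe sets, from 0.80 on the brightest to 0.41 on the dimmest. On 1419646_a_at and 1454651_x_at the size changed with tibialis anterior 2. Without that array, in a fit without the block, their differences were 0.29 ± 0.18 and 0.20 ± 0.24 (limma adjusted p = 0.633 and 0.834), and without both arrays numbered 2 they were 0.25 and 0.09. Without the arrays numbered 2 the difference on the brightest was 0.65 ± 0.26 (limma adjusted p = 0.427). Without those numbered 1, which include the array with the highest salivary sum, it was 0.77 ± 0.21 (limma adjusted p = 0.14). Masseter 2, with a salivary sum of 8412 against 3403 in masseter 3, stayed in that fit. With each array's salivary level as a covariate in place of the block, the difference on the brightest was 0.68 ± 0.20 (limma adjusted p = 0.2). The other 3 Mbp probe sets lay under the filter, with signals from 4.3 to 52.8, and on all 3 the muscles overlapped.

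**Figure D3:**
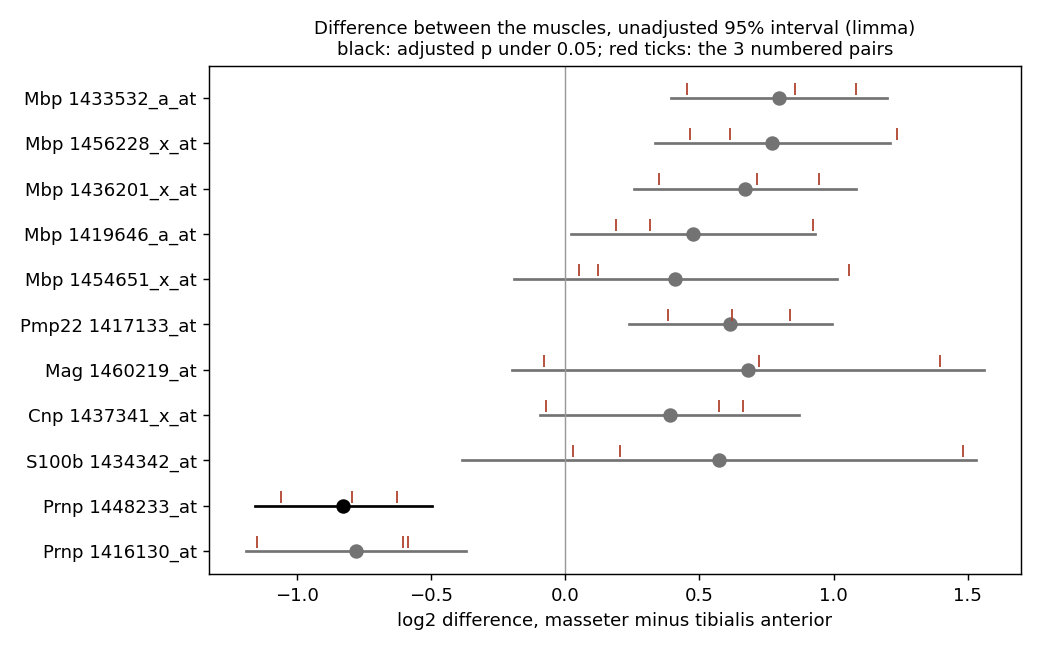
Log2 difference, masseter minus tibialis anterior (horizontal axis), of the 11 tested probe sets with unadjusted 95% intervals from limma, and the differences of the 3 numbered pairs as red ticks. The 9 probe sets of Mbp, Pmp22, Mag, Cnp and S100b lie between 0.39 and 0.80 and those of Prnp at -0.83 and -0.78, of which the black one passed the threshold.

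Pmp22 encodes a membrane protein of compact peripheral myelin, and in humans a changed dose of the gene causes inherited neuropathy. It is also made by fibroblasts and other cells outside nerve. Its probe set, 1417133_at, had signals of 407, 430 and 466 in the masseter and of 312, 280 and 260 in the tibialis anterior. The muscles did not overlap, and the spread within each was small, with SDs of 0.10 and 0.13 on the log2 scale. The difference of 0.61 ± 0.17 (interval 0.24 to 0.99) did not pass (limma adjusted p = 0.146). It was 0.73 ± 0.19 without the arrays numbered 1 (limma adjusted p = 0.114). Pdgfra, a receptor that marks fibroblasts, including those of nerve, was chosen after its values were seen. Its groups did not overlap and it did not pass, with signals of 204, 264 and 231 against 146, 158 and 105 (0.78 ± 0.19, limma adjusted p = 0.118). Of the 6 tested fibroblast and matrix genes, which include it, 3 had higher and 3 lower means in the masseter (median difference 0.07). Col1a1, chosen in the same way, had non-overlapping groups in the other direction (-1.26 ± 0.38, limma adjusted p = 0.2). The part of fibroblasts in the Pmp22 values was not tested.

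Mag and Cnp belong to non-compact myelin. Mag, an adhesion molecule of the membrane that faces the axon, had signals of 47.0, 52.2 and 63.5 in the masseter and of 28.5, 55.1 and 24.1 in the tibialis anterior. Tibialis anterior 2 was level with the masseter, and the groups overlapped (0.68 ± 0.38, limma adjusted p = 0.518). Cnp, a phosphodiesterase of the cytoplasmic channels of myelin, had signals of 136, 190 and 177 against 143, 128 and 112 on its bright probe set, 1437341_x_at. Masseter 1 lay below tibialis anterior 1, and the difference of 0.39 ± 0.21 did not pass (limma adjusted p = 0.495). Without the arrays numbered 1 it was 0.62 ± 0.21 and without those numbered 3 it was 0.25 ± 0.25 (limma adjusted p = 0.237 and 0.766). The Mag difference was 0.66, 1.06 and 0.32 without the arrays numbered 1, 2 and 3. The suffix x of 1437341_x_at marks that some of its probes may also bind other transcripts. The other 2 Cnp probe sets, 1418980_a_at and 1449296_a_at, lay under the filter, with signals from 4.4 to 60.9 and from 8.4 to 28.1. On both the muscles overlapped.

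S100b, a calcium-binding protein used as a marker of Schwann cells, both myelinating and not, was near the filter level. Probe set 1434342_at had signals of 32.1, 62.6 and 49.1 in the masseter and of 31.5, 22.4 and 42.6 in the tibialis anterior, and the groups overlapped. The difference of 0.57 ± 0.42 (interval -0.39 to 1.53) did not pass (limma adjusted p = 0.634), and the pair numbered 2 differed by 1.48, where the others differed by 0.03 and 0.20. Without the arrays numbered 2 the difference was 0.12 ± 0.58, and without those numbered 1 it was 0.84 ± 0.45 (limma adjusted p = 0.996 and 0.452). The second S100b probe set read at most 9.6 on any array. S100b is also expressed by adipocytes, whose summed marker signal is given above, and their part in the S100b values was not tested.

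Nefl, the light neurofilament subunit of axons, was at or near background. Its signals were 1.1, 22.9 and 24.0 in the masseter and 28.7, 4.2 and 4.9 in the tibialis anterior, in no order between the muscles. The medium and heavy subunits, Nefm and Nefh, were as dim, with signals from 0.9 to 15.8 and from 1.2 to 18.5. The axonal side of the set was therefore not measurable on these arrays. Of 17 axon and neuron genes on the array beside Nefl, 7 lay above the filter and 0 passed with limma in either direction, with 1 at an unadjusted p under 0.05. That 1 was Thy1, a surface glycoprotein of neurons and also of fibroblasts, chosen after its values were seen. Its signals were 230, 240 and 272 in the masseter and 137, 128 and 132 in the tibialis anterior (0.90 ± 0.17, limma adjusted p = 0.0589). It passed in 2 of 18 alternatives, 1 without the block (limma adjusted p = 0.039) and 1 with a filter raised to the 60th percentile (0.0422). The count was 1 in those.

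Prnp encodes the cellular prion protein, a glycoprotein anchored on the surface of neurons and many other cells, muscle fibres included. In mice its loss leads to a late demyelinating neuropathy. It was the gene of the set with a call, lower in the masseter. Probe set 1448233_at had signals of 875, 874 and 801 in the masseter and of 1518, 1352 and 1670 in the tibialis anterior. The groups did not overlap, and against a spread of 0.07 and 0.15 (SD of log2 signal) the difference was -0.83 ± 0.14, or 1.77-fold (limma adjusted p = 0.0395). The second probe set, 1416130_at, had signals of 228, 261 and 252 against 504, 392 and 383. Its groups did not overlap either, and its difference of nearly the same size, -0.78 ± 0.18, did not pass (limma adjusted p = 0.0978). In all 6 numbered comparisons over the 2 probe sets the masseter was lower. Of all probe sets tested, 8.63% had every masseter array below every tibialis anterior array.

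The Prnp difference kept its size, from -0.93 to -0.71, in the 18 alternatives tried, but the call held in 5 of them and ended in 13. Leaving out the arrays numbered 1, 2 or 3 in turn gave limma adjusted p-values of 0.0563, 0.0737 and 0.118. Without masseter 1 alone, in a fit without the block, the difference was -0.85 ± 0.16 (limma adjusted p = 0.0637). The summed signal of the fibre genes other than Myh4 overlapped between the muscles, and the part of fibre RNA in the Prnp values was not tested. Of 3 other genes chosen for links to the prion protein, 0 passed with limma, with 1 at an unadjusted p under 0.05. That was Stip1, a co-chaperone that binds the prion protein, chosen after its values were seen, with a difference of 0.43 ± 0.16 (limma adjusted p = 0.304).

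Other lists of nerve genes were read beside the set. Of 20 other myelin genes on the array, 13 lay above the filter, and 0 passed with limma in either direction (1 higher in the masseter and 0 lower at an unadjusted p under 0.05). Their median difference was -0.12, with 6 higher and 7 lower means in the masseter. The list was broad, and some of its genes, such as Dag1, are not confined to myelin. The gene at an unadjusted p under 0.05 was Cd9 (0.51 ± 0.18, limma adjusted p = 0.264), on which the muscles overlapped. Of the 13, 1 gene higher and 1 lower in the masseter had non-overlapping groups, where 17.8% of all probe sets tested had them in either direction. These were Ncmap and Cadm4, and neither passed. Cd9, Ncmap and Cadm4 were chosen after their values were seen. Ncmap was higher in the masseter (0.82 ± 0.40, limma adjusted p = 0.435) and Cadm4 lower (-0.65 ± 0.32, limma adjusted p = 0.45). Gjb1, the connexin of non-compact myelin, was at background with signals from 3.2 to 10.6. Mog, a myelin gene of the central nervous system, read at most 3.4.

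Of 19 genes that regulate Schwann cells on the array, 11 lay above the filter and 0 passed with limma, also at an unadjusted p under 0.05, and their median difference was -0.06. Sox10, the transcription factor that defines the Schwann lineage, had signals of 55.4, 75.6 and 34.8 in the masseter and of 82.0, 47.8 and 55.8 in the tibialis anterior (-0.20 ± 0.34, limma adjusted p = 0.866). Egr2, which drives myelination, had a difference of 0.15 ± 0.29 (limma adjusted p = 0.891). Erbb3, the neuregulin receptor of Schwann cells, had signals of 126, 105 and 129 against 106, 77.1 and 94.2 (0.38 ± 0.20, limma adjusted p = 0.475). Its groups overlapped in masseter 2 and tibialis anterior 1. The unadjusted 95% interval ran from -0.97 to 0.58 for Sox10, from -0.53 to 0.82 for Egr2 and from -0.07 to 0.83 for Erbb3.

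Genes listed for non-myelinating and terminal Schwann cells had no common direction. Of 12 on the array, 9 lay above the filter, 4 with higher and 5 with lower means in the masseter, and 0 passed with limma (2 higher and 2 lower at an unadjusted p under 0.05). Ngfr, the low-affinity neurotrophin receptor, had signals of 46.1, 23.1 and 77.8 against 83.8, 47.4 and 61.0 (-0.52 ± 0.35, limma adjusted p = 0.601). Ncam1, an adhesion molecule of these cells and also of muscle satellite cells, had signals of 29.1, 40.8 and 52.5 against 59.6, 74.5 and 62.3 (-0.72 ± 0.30, limma adjusted p = 0.369). Of 7 tested genes of cholesterol synthesis, a lipid pathway that myelin draws on, 0 passed with limma, also at an unadjusted p under 0.05, with a median difference of 0.11. Of 6 tested perineurial and nerve sheath genes 0 passed with limma, with 1, Pdgfra, at an unadjusted p under 0.05.

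**Figure D4:**
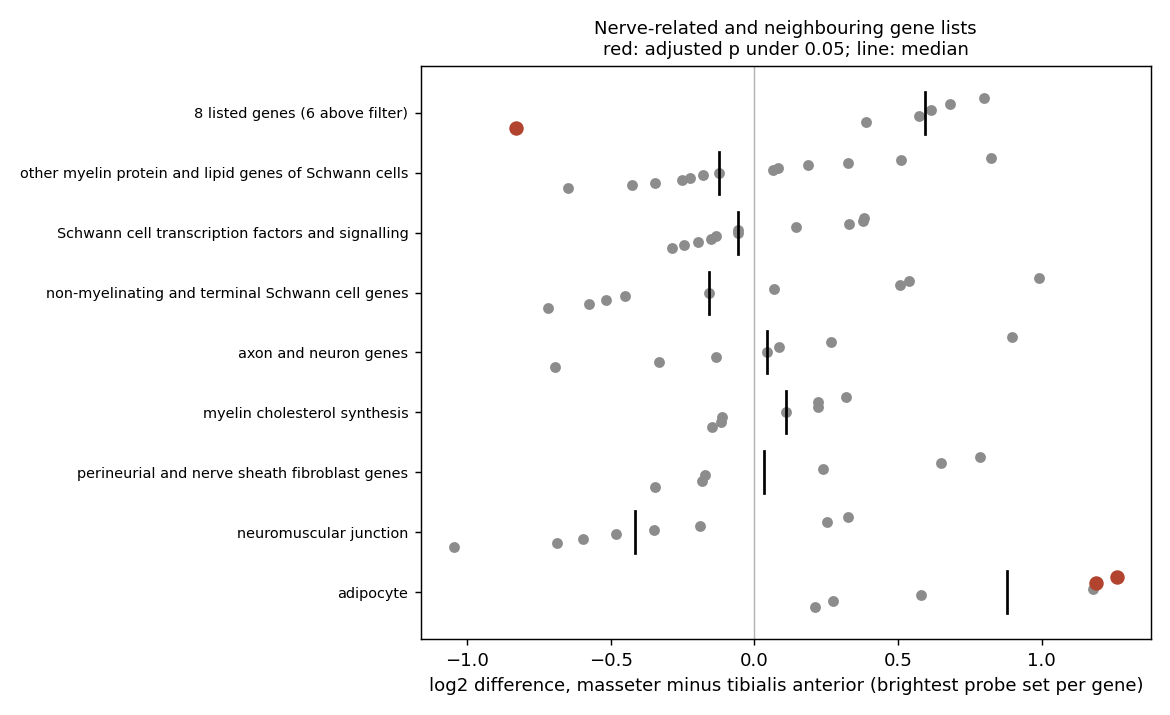
Log2 difference, masseter minus tibialis anterior (horizontal axis), of the brightest tested probe set of each gene, by list, with red points past the threshold and black lines at the median. The set described here has its median at 0.59, the other nerve lists have medians between -0.16 and 0.11, the neuromuscular junction list has -0.42 and the adipocyte list 0.88.

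The genes whose pattern over the 6 arrays lay nearest to the brightest Mbp probe set were found by the root mean square (RMS) difference of centred log2 signal, among 5563 genes whose SD was at least 0.5 times that of the profile. They were Arsa, a lysosomal sulfatase (RMS 0.07), Cbx2, a Polycomb protein (0.08), Polk, a DNA polymerase (0.10), Thbd, the endothelial thrombomodulin (0.11), and Tmbim1 (0.11). Arsa had signals of 196, 171 and 137 in the masseter and of 112, 86.4 and 107 in the tibialis anterior. It thus shared with Mbp the order of the masseter arrays and the low value of tibialis anterior 2. The genes nearest to the mean profile of Mbp, Mag and Pmp22 were Hspb3, a small heat shock protein of muscle (0.06), Lamtor1, Ugdh, Creg1 and Ddt (0.07 to 0.08). None of these 10 passed the threshold, with limma adjusted p-values from 0.0631 to 0.239. The likeness covers 6 arrays, and with so few arrays many genes can share a pattern.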

How the data were processed

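The deposited table holds a linear signal intensity for every probe set on each array. Per the submitters' processing notes the authors used MAS5 and GCOS; neither version nor settings are stated in them. All 6 arrays had a 2% trimmed mean of 150.1, and the authors' scaling was kept. The platform annotation named the probe sets, and symbols were compared with RefSeq by gene identifier. Names were given only to the 20380 of 22690 probe sets with a single symbol. Each was reported apart, and lists used each gene's brightest probe set.

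Values below 1 were raised to 1 before log2. Leaving out 64 controls, 13576 probe sets had a mean log2 signal at or above the 40th percentile (4.84) and were tested. The test was limma 3.58.1 (R 4.3.3; lmFit and eBayes with trend, two-sided). The number in the sample titles was a block, since the series text speaks of pairs. P-values were adjusted by Benjamini-Hochberg over these 13576. On simulated data, only the median estimated difference was checked against the simulated size. That check does not show how many true differences would pass the threshold. Few arrays limit the precision, and 136 to 302 signals per array lay at or under 1, where ratios are imprecise.

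The genes, the lists and the rule for naming genes were chosen with earlier results of these data known. That rule named all probe sets of the 8 genes, list genes past the threshold (up to 4 per list), 8 nerve genes (Gjb1, Sox10, Egr2, Erbb3, Ngfr, Ncam1, Nefm, Nefh) and further ones that are not reported here, the 2 brightest salivary and adipocyte genes, and the 5 nearest patterns of 2 profiles. Other genes are named as chosen after their values were seen or as list examples. There were 15 lists: the 8 genes, other myelin genes, Schwann cell regulators, non-myelinating Schwann cells, axon and neuron, prion partners, cholesterol synthesis, perineurium, salivary gland, adipocyte, fibroblast, endothelium, immune cells, muscle fibre and neuromuscular junction. Alternatives changed the block, the trend, the normalization, the low-signal handling, the filter and the arrays, and added paired SAM, the method the series text names.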

Additional observations from a re-analysis of the deposited data

How the results depend on the processing

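The count of tested probe sets of the set past the threshold was 1, and it was also 1 without the replicate block, with the offset of 16, without the filter and with the filter at the 60th percentile. It was 0 with eBayes without trend, quantile normalization, median centring and the salivary covariate without the block (limma, with 6 of 11 at an unadjusted p under 0.05 in each), and 0 with paired SAM. With arrays left out it ran from 0 to 1, and the 1 was without tibialis anterior 2; 4 to 8 of the 11 then had an unadjusted p under 0.05. The Prnp call behind that count had adjusted p-values from 0.0265 (no replicate block) to 0.281 (eBayes without trend), and 0.0512 with quantile normalization and 0.0504 with median centring. The other 10 tested probe sets passed in 0 of 178 values under these alternatives (limma or paired SAM) and changed direction in 0.

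The count over all probe sets, 160, was 138 without the replicate block. It was 13 with eBayes without trend, 67 with the salivary covariate without the block and 65 with paired SAM, and with arrays left out it ran from 45 (without masseter 2) to 173. The cause of these shifts was not tested. Same-numbered arrays had correlations of deviations from the group means of 0.039, 0.152 and 0.101 for numbers 1, 2 and 3. Arrays of unlike number had correlations from -0.157 to 0.047. For numbers 2 and 3 the same-numbered value was the highest of either array. For number 1 it was not, as masseter 1 correlated more with tibialis anterior 2 (0.041). The correlations were small, and the data do not settle whether a number marks a shared animal. For the Gapdh control, signal near the 3' end over that near the 5' end was 2.66 ± 0.23 in masseter arrays and 1.94 ± 0.11 in tibialis arrays (SD, n = 3; exact permutation p = 0.1, the smallest possible here). For Actb it was 2.96 ± 0.34 and 2.70 ± 0.11 (SD, n = 3; exact permutation p = 0.3). The part of RNA quality in the values was not tested.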

Other observations

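Nab2, a co-repressor of Egr factors in myelinating Schwann cells, had signals of 38.9, 17.6 and 53.7 in the masseter and of 7.5, 3.5 and 7.1 in the tibialis anterior. The muscles did not overlap, but the gene lay under the filter and was not tested. Its relative Nab1 was brighter, with signals of 262, 225 and 227 against 181, 189 and 197 (0.33 ± 0.17, limma adjusted p = 0.478). Both were chosen after their values were seen. Among the genes listed for non-myelinating Schwann cells, Apod, a lipocalin, had signals of 266, 236 and 234 against 472, 342 and 303 (-0.58 ± 0.17, limma adjusted p = 0.189). S100a6 had 379, 419 and 469 against 290, 283 and 317 (0.51 ± 0.15, limma adjusted p = 0.204). The part of other cells in the Apod and S100a6 values was not tested. Neither gene passed, and both were chosen after their values were seen. On the muscle side of the synapse, 0 of 8 tested neuromuscular junction genes passed with limma, with 0 higher and 2 lower in the masseter at an unadjusted p under 0.05, and 1 passed without the arrays numbered 3 and without masseter 3 alone.

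The remaining lists served to show other cells in the samples. Among 9 tested salivary genes 3 were higher in the masseter and 0 lower with limma (Chia1, Pip and Smr3a). The muscles overlapped on all 3. The count was 0 without the block (limma adjusted p = 0.345, 0.302 and 0.529), with the offset of 16 and with eBayes without trend. In fits without the block, it was also 0 with each single array left out. It was 6 without the arrays numbered 2 and 7 without those numbered 3. With the salivary covariate it was 0, but that covariate was the mean log2 signal of this same list. That 0 therefore says nothing about these calls. Pip, a protein secreted in saliva, had signals of 8071, 564 and 24.2 in masseter 1, 2 and 3 and of 72.4, 20.7 and 3.6 in the tibialis anterior. Of the fibroblast, endothelial and immune lists, 0 of 6, 0 of 7 and 0 of 7 tested genes passed with limma, with median differences of 0.07, -0.31 and -0.01. At an unadjusted p under 0.05 there were 1 higher and 1 lower, 0 higher and 1 lower, and 1 higher and 0 lower. Of 10 muscle fibre genes 1 passed with limma, Myh4, the fast IIB myosin, lower in the masseter by -1.47 ± 0.14 (adjusted p = 0.00265). It did not pass with eBayes without trend or with paired SAM.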
